A study of Mus musculus with 9 samples.

Results

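Transcripts of 8 regulators of G protein signaling (RGS), Rgs1, Rgs2, Rgs3, Rgs10, Rgs14, Rgs16, Rgs18 and Rgs19, were followed in splenic CD4+ T cells of wild type C57BL/6 mice carrying Trail-r+/+. The 8 genes were chosen by name, with their levels in the same libraries already known. Levels are given in TPM, a share of each library's transcripts scaled for length. The members are 8 of the 55487 genes in the expression table and 8 of its 21 genes named Rgs with a number. The mice were young females according to the study's methods, and the cells were enriched by negative selection, which leaves CD4+ cells untouched and removes others. The cells of 3 libraries were untreated in medium, 3 libraries came from cells exposed for 24 h to Abs against CD3 (anti-CD3, at 3 µg/ml) together with Abs against CD28 (anti-CD28, at 2 µg/ml), and 3 from cells that received both Abs together with TRAIL, the TNF-related apoptosis-inducing ligand, at 10 µg/ml for the same time. Neither the time in medium nor whether the 3 libraries of a group came from separate mice is given in the sources used here, so the spread between libraries, and the p-values that rest on it, may be technical. The design asks how T cell receptor (TCR) stimulation changes these genes, and what TRAIL changes in stimulated cells.

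RGS proteins bind the active, GTP-bound alpha subunit of a heterotrimeric G protein and speed up its GTP hydrolysis, which shortens the signal of a G protein-coupled receptor. In lymphocytes they act downstream of chemokine and sphingosine 1-phosphate receptors, which guide migration and retention in lymphoid tissue, and downstream of receptors that set cyclic AMP. Rgs1, Rgs2, Rgs3, Rgs16 and Rgs18 belong to the R4 subfamily, Rgs10 and Rgs14 to the R12 subfamily and Rgs19, also called GAIP, to the RZ subfamily.

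The members lie on 5 chromosomes (GRCm38, as listed in the table). Rgs2 (ENSMUSG00000026360, chr1:143999338-144004161), Rgs1 (ENSMUSG00000026358, chr1:144242296-144249242) and Rgs18 (ENSMUSG00000026357, chr1:144752683-144775435) are on the minus strand of chromosome 1 within 776 kb, and Rgs16 (ENSMUSG00000026475, chr1:153740349-153745468) is on the plus strand of the same chromosome. Rgs3 (ENSMUSG00000059810) is at chr4:62559847-62704001, Rgs10 (ENSMUSG00000030844) at chr7:128373621-128418758, Rgs14 (ENSMUSG00000052087) at chr13:55369732-55384687 and Rgs19 (ENSMUSG00000002458) at chr2:181688419-181693977. All 8 are annotated as protein coding in GENCODE M21.

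Because Rgs2 and Rgs16 moved in opposite directions under stimulation, the sequence before the start of each is shown, from 250 to 21 bases upstream, in the direction of the gene, as given by RefSeq (GRCm38.p6). The first is chr1:144004170-144004399 on the minus strand and the second chr1:153740103-153740332 on the plus strand. Capitals mark every match to the motifs searched on both strands, which here are the core of the cyclic AMP response element (CRE core, TGACG or its reverse complement CGTCA) and the GC box (GGGCGG or CCGCCC).
Rgs2: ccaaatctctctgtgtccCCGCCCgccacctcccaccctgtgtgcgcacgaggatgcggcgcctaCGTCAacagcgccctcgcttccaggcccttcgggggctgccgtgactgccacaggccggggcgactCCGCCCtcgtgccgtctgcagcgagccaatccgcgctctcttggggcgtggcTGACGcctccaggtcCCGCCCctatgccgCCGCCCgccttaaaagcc
Rgs16: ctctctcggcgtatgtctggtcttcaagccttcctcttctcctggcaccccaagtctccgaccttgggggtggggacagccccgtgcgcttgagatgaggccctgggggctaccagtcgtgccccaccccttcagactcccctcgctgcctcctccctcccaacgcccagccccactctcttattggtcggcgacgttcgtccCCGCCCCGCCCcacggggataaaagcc
The Rgs2 window, which extends over 300 bases up to 50 bases past the start, held the CRE core in both orientations and 4 GC boxes. In the Rgs16 window, 2 GC boxes overlapped and no CRE core was found. The CRE core occurs in 20.8% and the GC box in 35.7% of the 32851 promoter windows of the table, so neither is rare. The full CRE (TGACGTCA, in 1.79% of windows), the AP-1 motif (TGANTCA, 7.81%) and the STAT motif (TTCNNNGAA, 8.3%) were not found in the 8 windows of the 5 members that have one. The NFAT core (GGAAAA, 23.4%) and the E-box (CACGTG, 7.15%) were found only in windows of Rgs19, and the TATA box (TATAAA, 13.6%) only in both windows of Rgs3. Those matches began at positions -100 and -177 from the start. Only exact letters were searched, so similar AT-rich stretches in the other windows were not counted. Base composition was 70% G and C with 33 CpG dinucleotides in the Rgs2 window and 66% with 22 in the Rgs16 window, against medians of 52.7% and 7 over all windows. Rgs1, Rgs14 and Rgs18 had no window in the table.

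The libraries were compared with markers of T cells and of cells that the enrichment should remove, each list summed in TPM. T cell markers (Cd3e, Cd4 and 7 others) summed to 3247 to 3512 TPM in medium, to 2532 to 2705 after stimulation and to 3215 to 3553 in TRAIL-treated libraries. B cell markers summed to 2429 to 2523, 189 to 211 and 998 to 1130, and Cd79a alone was at 504 to 593 TPM in medium. Macrophage and monocyte markers summed to 1705 to 1889, 44.9 to 52.0 and 1407 to 1575, and erythroid markers to 2149 to 2600, 25.6 to 40.8 and 622 to 672. The same order, medium above TRAIL-treated above stimulated with no overlap, held for the neutrophil (734 to 990, 32.9 to 47.8, 451 to 540), dendritic cell (61.6 to 65.9, 9.76 to 13.3, 37.3 to 40.6), natural killer cell (113 to 139, 19.8 to 22.3, 40.4 to 41.9) and platelet and megakaryocyte lists (96.1 to 118, 26.5 to 44.6, 59.0 to 71.0). In the limma fit all 10 B cell, 12 macrophage and monocyte, 8 neutrophil and 8 erythroid markers were called lower under stimulation, and 9, 12, 7 and 7 of them were called higher with TRAIL than with stimulation alone. CD8 T cell markers, at 110 to 118, 94.2 to 105 and 46.9 to 49.4, were lowest with TRAIL. Among the defining markers, Gp6 and Slc4a1 were listed at the value that stands for no signal in all 3 stimulated libraries. In bulk RNA, fewer cells of a type and less RNA per cell cannot be told apart, and TPM gives shares of a library, not amounts per cell. The 6 genes of TCR activation summed to 821 to 901 TPM in medium, to 2200 to 2596 after stimulation and to 2944 to 3269 with TRAIL, and they did not move together. Under stimulation Il2ra, the interleukin-2 receptor alpha chain, Myc, Tfrc and Egr2 were called higher. With TRAIL Il2ra, Myc and Tfrc were called lower than with stimulation alone, and Nr4a1, an early response gene, was called higher, with group means of 177, 215 and 1926 TPM beside 24.0, 868 and 23.2 TPM for Il2ra. Egr2 (17.8, 85.6 and 141 TPM) and Cd69 (448, 380 and 733 TPM) had their highest means with TRAIL.

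**Figure D1:**
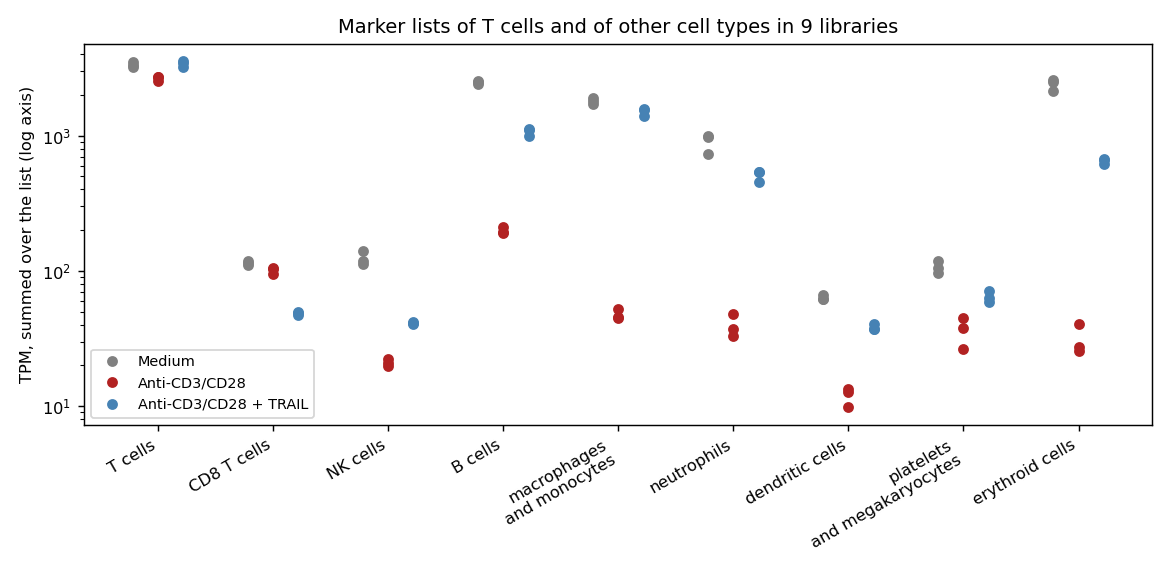
Summed TPM (log axis) of the marker lists of T cells and 8 other cell types in each of 9 libraries, colored by group. The T cell list stays between 2532 and 3553 TPM in all libraries, whereas the macrophage and monocyte list falls to 44.9 to 52.0 TPM in stimulated libraries.

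Rgs2, a regulator with a preference for Gq, was the member with the widest range. It was at 223, 159 and 171 TPM in the 3 medium libraries, at 8.49, 7.35 and 7.32 in the stimulated libraries and at 336, 420 and 489 in the TRAIL-treated libraries. The groups did not overlap, and every TRAIL-treated library was above every medium library. Mean levels were 184 ± 33.7, 7.72 ± 0.668 and 415 ± 76.8 TPM (SD, n = 3), that is, 23.9-fold lower in stimulated than in medium libraries and 53.8-fold higher with TRAIL than with stimulation alone. On the log2(TPM + 1) scale the differences were -4.40, 5.56 and, for TRAIL-treated against medium, 1.17, each with an SE of 0.16. The macrophage and monocyte list moved the same way in the first 2 of these comparisons, by a factor of 0.0265 and then 31.7. In TRAIL-treated libraries the list was at 0.839 times its medium level and Rgs2 at 2.25 times its own. The part of macrophages and monocytes in the Rgs2 values was not tested.

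Rgs16, which T cells are known to induce on activation and which dampens Gi and Gq signals, had the opposite course. Its level was 4.87, 5.09 and 4.94 TPM in medium, 54.3, 57.0 and 45.6 in stimulated and 10.8, 11.9 and 11 in TRAIL-treated libraries. The 3 groups were apart, with TRAIL-treated libraries between the others and nearer to medium. The mean rose 10.5-fold from 4.97 ± 0.113 to 52.3 ± 5.98 TPM and was 11.2 ± 0.569 TPM with TRAIL (SD, n = 3), 4.66-fold below stimulated and 2.26-fold above medium libraries. The log2 differences were 3.15, -2.12 and 1.03, each with an SE of 0.11. The marker sum of every other cell type was lower after stimulation than in medium. Of the 7 dendritic cell markers 6 were called lower under stimulation, and Zbtb46 was not, with group means of 2.44, 5.86 and 1.2 TPM and log2 differences of 0.99, just below the fold threshold, -1.63 and, against medium, -0.65 (SE 0.13 each). Its part in the Rgs16 values was not tested.

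Rgs1, which restrains the response of lymphocytes to chemokines, differed from both. It was at 69.4, 36.0 and 41.3 TPM in medium, at 68.3, 54.0 and 57.0 in stimulated and at 94.8, 106 and 119 in TRAIL-treated libraries. Medium and stimulated libraries overlapped, and all TRAIL-treated libraries lay above them. The means were 48.9 ± 17.9, 59.8 ± 7.53 and 107 ± 12.1 TPM (SD, n = 3), with log2 differences of 0.34 for stimulation, 0.83 for TRAIL in stimulated cells and 1.16 for TRAIL-treated against medium, each with an SE of 0.21. Replicate 1 of medium was far above the other two. Without it the differences from medium were 0.61 for stimulation and 1.44 for TRAIL-treated libraries, and without replicate 2 they were 0.15 and 0.97. Without replicate 3 of medium the stimulation value was 0.24.

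Rgs3, which has long and short protein forms, fell under stimulation and was near its medium level with TRAIL. Its values were 59.0, 75.0 and 55.0 TPM in medium, 16.2, 19.4 and 19.7 in stimulated and 76.0, 71.1 and 60.8 in TRAIL-treated libraries. TRAIL-treated and medium libraries overlapped, and the stimulated libraries were below both. The group means of 63.0 ± 10.6, 18.4 ± 1.97 and 69.3 ± 7.75 TPM (SD, n = 3) gave log2 differences of -1.71, 1.85 and 0.14, each with an SE of 0.14. The last ran from 0.05 to 0.33 over 19 alternative fits. The table gives a single value per gene, so the forms of Rgs3 cannot be told apart. The marker sums of B cells, myeloid and erythroid cells were also lower after stimulation and higher with TRAIL, and their part in the Rgs3 values was not tested.

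Rgs18, which is known from platelets and megakaryocytes, was the least abundant member apart from Rgs16 in medium. It was at 16.3, 13.3 and 13.6 TPM in medium, at 0.736, 0.952 and 0.634 in stimulated and at 4.57, 6.35 and 5.14 in TRAIL-treated libraries. The groups did not overlap, and TRAIL-treated libraries stayed below medium. Means were 14.4 ± 1.62, 0.774 ± 0.162 and 5.35 ± 0.909 TPM (SD, n = 3), 18.6-fold lower under stimulation and 6.91-fold higher with TRAIL than without, with log2 differences of -3.12, 1.83 and -1.28 (SE 0.14 each). These values depend on the pseudocount of 1. With 5 in its place they were -1.75, 0.84 and -0.91, and with 0.1 they were -4.06, 2.64 and -1.42. The platelet and megakaryocyte list was at 0.342 times its medium level under stimulation and 1.78 times its stimulated level with TRAIL. These sums rest largely on Itgb3, at 51.7, 29.6 and 40.4 TPM beside list means of 106, 36.3 and 64.5 TPM. Of its 12 genes 7 were tested, of which 6 were called lower and then 1 higher, and Itgb3 was not called in any comparison. The part of the list in the Rgs18 values was not tested. Within that list Clec1b, a platelet receptor of podoplanin, had group means of 15.9, 0.304 and 14 TPM and was the gene called higher with TRAIL. Ppbp had means of 10.2, 0.36 and 1.72 TPM and Itga2b of 9.04, 3.01 and 5.45 TPM, whereas Pf4, at 9.94, 2.11 and 1.02 TPM, was the tested gene of the list with a lower mean with TRAIL than with stimulation alone.

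Rgs14, a larger protein with Ras-binding domains and a GoLoco motif that binds inactive Gi alpha subunits, also fell under stimulation and was higher again with TRAIL. Its values were 102, 122 and 105 TPM in medium, 23.3, 23.8 and 26.3 in stimulated and 88.6, 76.5 and 64.9 in TRAIL-treated libraries. The groups did not overlap, and TRAIL-treated libraries lay below medium. The group means of 110 ± 11.1, 24.5 ± 1.65 and 76.7 ± 11.9 TPM (SD, n = 3) gave log2 differences of -2.12, 1.60 and -0.52 (SE 0.13 each). The order medium, TRAIL-treated and stimulated, without overlap, is also that of the B cell, macrophage and monocyte, neutrophil, erythroid, dendritic cell, natural killer cell and platelet marker sums, whose part in the Rgs14 values was not tested.

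Rgs10, a small regulator abundant in leukocytes, moved little and with little spread. It was at 153, 155 and 158 TPM in medium, at 132, 121 and 134 in stimulated and at 216, 210 and 227 in TRAIL-treated libraries. The groups did not overlap, with TRAIL-treated libraries highest. The group means of 155 ± 2.57, 129 ± 6.86 and 217 ± 8.89 TPM (SD, n = 3) gave log2 differences of -0.27, 0.75 and 0.48 (SE 0.08 each). Over 19 alternative fits the first of these ran from -0.42 to -0.18. The non-coding gene Gm15503 overlaps Rgs10 on the same strand, had group means of 3.21, 1.83 and 6.27 TPM and was at most 6.41 TPM. TPM is scaled for length, so the share of reads that this pair may exchange is not known.

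Rgs19, which acts on Gi alpha subunits, was lowest with TRAIL. It was at 92.3, 126 and 107 TPM in medium, at 68.8, 66.9 and 66.6 in stimulated and at 63.6, 58.7 and 49.9 in TRAIL-treated libraries. The groups did not overlap, although stimulated and TRAIL-treated libraries were close. The group means of 109 ± 17.0, 67.4 ± 1.19 and 57.4 ± 6.96 TPM (SD, n = 3) gave log2 differences of -0.67, -0.24 and -0.91 (SE 0.13 each). The last was -1.02 without replicate 1 of medium, and the second ran from -0.31 to -0.09 over 19 alternative fits. The CD8 T cell marker sum had the same order without overlap, at 0.887 times its medium level after stimulation and 0.426 times that level with TRAIL. Of its 2 genes, Cd8b1 was lower and Cd8a higher after stimulation than in medium. Their group means were 74.8, 55.8 and 34.4 TPM for Cd8b1 and 39.0, 45.0 and 14.1 TPM for Cd8a. The part of CD8 T cells in the Rgs19 values was not tested.

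**Figure D2:**
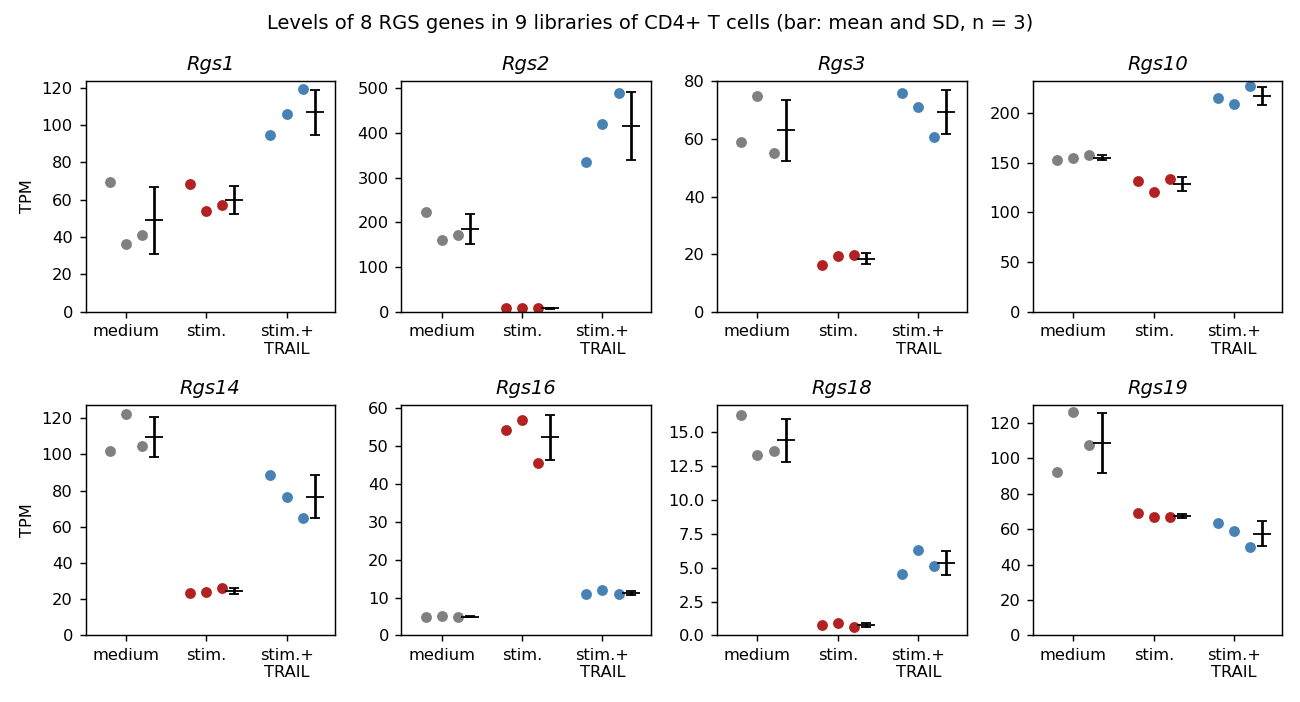
TPM of each RGS gene in the 3 libraries of each group (points, replicates 1 to 3 from left to right), with the mean and SD as bars, on a linear axis from 0 that differs between panels. Rgs2 drops to 7.72 TPM and rises to 415 TPM with TRAIL, Rgs16 does the reverse, and Rgs10 stays between 121 and 227 TPM.

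Calls in the fit across all genes needed a limma adjusted p under 0.05 and an absolute log2 difference of at least 1. In stimulated against medium libraries, 1 of the 8 genes was called higher (Rgs16) and 4 lower (Rgs2, Rgs3, Rgs14 and Rgs18), where 31.9% of 15536 tested genes were called, 12.4% higher and 19.5% lower. In TRAIL-treated against stimulated libraries, 4 were called higher (Rgs2, Rgs3, Rgs14 and Rgs18) and 1 lower (Rgs16), where 30.9% of tested genes were called, 16.6% higher and 14.3% lower. In TRAIL-treated against medium libraries, 3 were called higher (Rgs1, Rgs2 and Rgs16) and 1 lower (Rgs18), where 4.62% were called, 2.49% higher and 2.13% lower. These counts describe genes selected on the same values, so they are set beside the shares of all genes and nothing is read from the difference. The stimulated libraries enter the first 2 comparisons with opposite sign, so the reversal of the 5 calls between them is partly fixed by the shared libraries. The call of Rgs1 against medium was lost without replicate 2 of medium, where the log2 difference was 0.97, and the calls of Rgs18 with TRAIL, against stimulated and against medium libraries, were lost with a pseudocount of 5. The call of Rgs16 against medium was lost without replicate 2 of TRAIL-treated cells, where the log2 difference was 0.996, and with a pseudocount of 5, where it was 0.70. Under median-of-ratios scaling the median log2 difference of all genes in TRAIL-treated against medium libraries moved by 0.17 and the calls of all genes split into 534 higher and 186 lower, against 387 and 331 without it. Quantile normalization gave 507 and 210 there, and 2392 higher and 2383 lower in stimulated against medium libraries against 1926 and 3033, with medians moved by 0.14 and 0.17. None of the 24 log2 differences of the 8 genes changed sign under any of the 19 alternatives run, these scalings included.

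**Figure D3:**
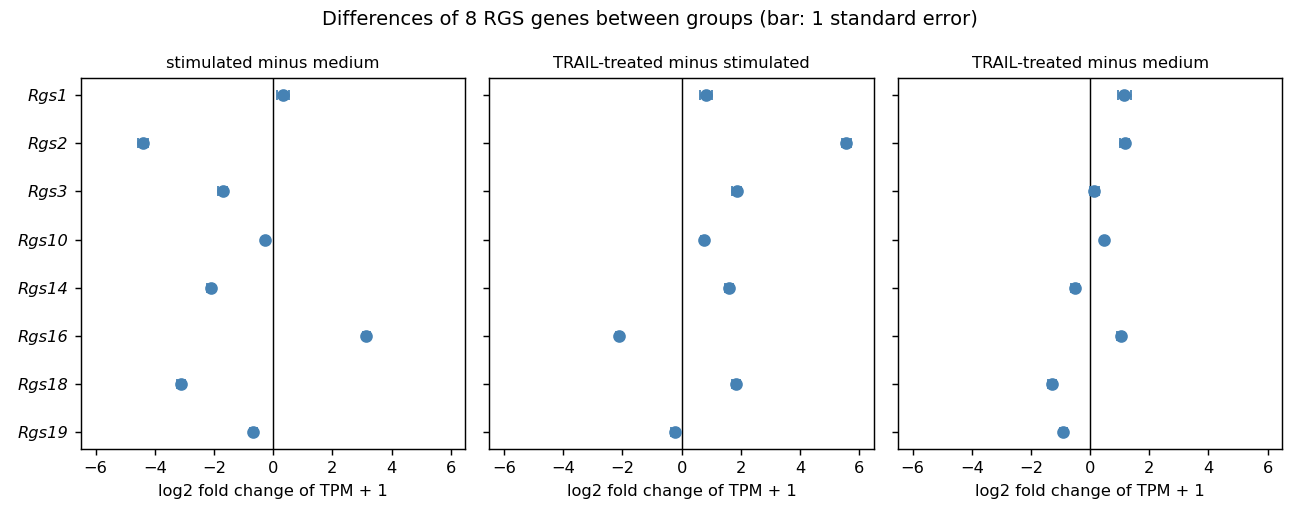
Log2 difference of TPM + 1 for each RGS gene in the 3 comparisons, with bars of 1 SE from the limma fit of 9 libraries. Rgs2 lies at -4.40 and 5.56 in the left and middle panels and Rgs16 at 3.15 and -2.12, while in the right panel all 8 lie between -1.28 and 1.17.

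TPM is scaled to transcript length, so levels can be compared between genes. The 8 genes summed to 689 ± 31.9 TPM in medium, 360 ± 11.1 in stimulated and 959 ± 68.6 in TRAIL-treated libraries (SD, n = 3). Rgs2 made up 26.7% ± 4.01 of that sum in medium, 2.14% ± 0.123 in stimulated and 43.0% ± 4.98 in TRAIL-treated libraries. Rgs16 went from 0.722% ± 0.0399 to 14.5% ± 1.75 and 1.17% ± 0.0916, and Rgs10 from 22.6% ± 1.43 to 35.8% ± 1.49 and 22.7% ± 1.31. In medium libraries the order of levels was Rgs2, Rgs10, Rgs14, Rgs19, Rgs3, Rgs1, Rgs18 and Rgs16, and the neighbors Rgs14 and Rgs19, and Rgs3 and Rgs1, overlapped in range. In stimulated libraries it was Rgs10, Rgs19, Rgs1, Rgs16, Rgs14, Rgs3, Rgs2 and Rgs18, with overlap between Rgs19 and Rgs1 and between Rgs1 and Rgs16. In TRAIL-treated libraries it was Rgs2, Rgs10, Rgs1, Rgs14, Rgs3, Rgs19, Rgs16 and Rgs18, with overlap between Rgs14 and Rgs3 and between Rgs3 and Rgs19. Rgs10 was thus first under stimulation and second in the other groups, and Rgs2 went from first to seventh.

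**Figure D4:**
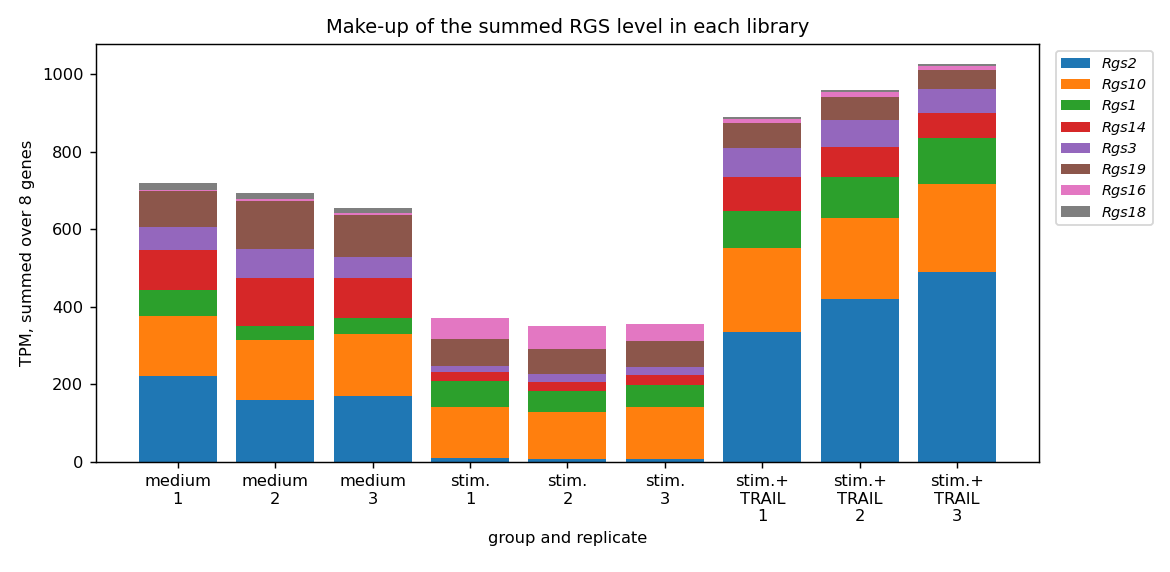
Summed TPM of the 8 RGS genes in each of 9 libraries, stacked by gene from 0. The sum lies at 656 to 719 TPM in medium, at 350 to 372 after stimulation and at 890 to 1027 in TRAIL-treated libraries, and the Rgs2 part almost disappears in the stimulated bars.

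Of the 13 other genes named Rgs with a number, 3 passed the filter of at least 1 TPM in at least 3 libraries and 10 did not. The choice of members had no threshold on level, since Rgs11, at 9.29 to 29.1 TPM, was left out although it lay above Rgs18. Rgs11, which pairs with the G protein subunit Gnb5, was at 16.4 ± 1.54 TPM in medium, 25.9 ± 3.94 in stimulated and 11.6 ± 2.41 in TRAIL-treated libraries (SD, n = 3) and was called lower with TRAIL than with stimulation alone (log2 difference -1.10, SE 0.16, limma adjusted p = 0.000156). Arhgdig overlaps it on the opposite strand and was at 9.57 to 13.1 TPM in stimulated libraries and at most 0.241 TPM elsewhere. Whether the counting used strand is not given in the sources used here, so reads of this pair may be exchanged. Rgs13, known from B cells, was at 2.12 to 3.86 TPM in medium, was listed at the fill value of 0.0001 in all stimulated libraries and was at 1.16 to 1.25 TPM with TRAIL. It was called lower under stimulation and higher with TRAIL, and no fold is given against the fill value. Rgs12, at 2.14 to 6.38 TPM over all libraries, was not called in any comparison. Rgs9 was at 0.391 to 1.28 TPM, and the other 9 were at or below 0.108 TPM in every library.

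The chromosome 1 stretch from Rgs2 to Rgs18 holds 8 genes of the table, 5 of them named Rgs with a number and all 5 on the minus strand. Rgs2, Rgs13 and Rgs18 were called lower under stimulation and higher with TRAIL there, Rgs1 was called in neither comparison, and Rgs21 was at the fill value in every library. Gm7266, the other tested gene of the stretch, had group means of 1.79, 1.45 and 4.02 TPM and was called higher with TRAIL (log2 difference 1.03, SE 0.16, limma adjusted p = 0.0002203). Within 500 kb on either side, 6 of 13 genes were tested. Uchl5, a deubiquitinase gene, was at 39.2 ± 3.13 TPM in medium, 116 ± 4.32 in stimulated and 36.9 ± 0.612 in TRAIL-treated libraries (SD, n = 3), and was called higher and then lower (log2 differences 1.55 and -1.63, SE 0.09 each, limma adjusted p = 1.462e-07 and 1.147e-07). Its direction was opposite to that of Rgs2. Gm6397 was called higher under stimulation (log2 difference 1.08, SE 0.09, limma adjusted p = 1.592e-06), and Cdc73, Glrx2, Ro60 and Gm29170 were not called in any comparison.

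Other genes of G protein signaling were taken from lists by role, the other Rgs genes included, chosen with earlier results of these data known, and 94 of their 122 genes were tested. In stimulated against medium libraries 7 were called higher and 36 lower, where 12.4% and 19.5% of all tested genes were. In TRAIL-treated against stimulated libraries the counts were 33 and 9, beside 16.6% and 14.3% of all genes, and in TRAIL-treated against medium libraries 4 and 1, beside 2.49% and 2.13%. The counts given by list stand beside the same shares. The list medians of the log2 difference were -0.50, 0.44 and -0.15, against -0.15, 0.011 and -0.18 over all tested genes. Without replicate 2 of medium, 8 genes were called in the last comparison. Many of these genes are also used by B cells and myeloid cells, whose marker sums fell and rose in the same comparisons as given above, and the part of those cells was not tested.

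Among receptors that couple to Gi, the class whose signal most RGS proteins shorten, 3 of 19 were called higher and 11 lower under stimulation, and 11 were called higher and 3 lower with TRAIL. Cxcr4, the receptor of the chemokine CXCL12, was at 494 ± 24.8 TPM in medium, 24.8 ± 1.43 in stimulated and 615 ± 32.5 in TRAIL-treated libraries (SD, n = 3). Its log2 differences were -4.26 under stimulation and 4.58 with TRAIL (SE 0.09 each, limma adjusted p = 1.946e-10 and 1.692e-10), beside -4.40 and 5.56 for Rgs2. S1pr1, the receptor that lets lymphocytes leave lymphoid tissue, fell from 358 ± 36.2 to 35.1 ± 7.07 TPM and was at 442 ± 23.1 TPM with TRAIL (log2 differences -3.33 and 3.63, SE 0.14 each, limma adjusted p = 1.256e-08 and 8.554e-09). The chemokine receptor genes Ccr8 and Ccr4 took the course of Rgs16. Ccr8 was at 6.45 ± 0.829, 133 ± 7.15 and 30.7 ± 2.41 TPM, and Ccr4 at 9.13 ± 1.05, 70.0 ± 3.20 and 8.76 ± 0.564 TPM in the medium, stimulated and TRAIL-treated groups (SD, n = 3). Ccr8 was also called higher in TRAIL-treated than in medium libraries (log2 difference 2.09, SE 0.11, limma adjusted p = 1.302e-06), while Ccr4 differed there by -0.05. Ccr6 (43.1, 1.89 and 16.6 TPM) and Cnr2, the cannabinoid receptor of immune cells (35.7, 3.77 and 21.5 TPM), which B cells also express, were called lower under stimulation and higher with TRAIL, and Ccr6 was called lower in TRAIL-treated than in medium libraries (log2 difference -1.34, SE 0.12, limma adjusted p = 4.117e-05).

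Of 16 other lymphocyte receptors, 2 were called higher and 4 lower under stimulation, and 8 were called higher and 2 lower with TRAIL. Vipr1, a receptor of vasoactive intestinal peptide, was at 72.4 ± 12.1, 12.2 ± 1.98 and 71.6 ± 11.3 TPM in the medium, stimulated and TRAIL-treated groups (SD, n = 3). Gpr132, a receptor of lipids, and P2ry10, a receptor of lysophosphatidylserine, were called higher with TRAIL than in either other group, as Rgs2 was. Gpr132 was at 82.5 ± 6.55, 96.5 ± 0.309 and 251 ± 12.5 TPM and P2ry10 at 152 ± 28.1, 102 ± 1.2 and 361 ± 47.7 TPM (SD, n = 3), with log2 differences from medium of 1.59 and 1.26. F2rl1 (37.5, 8.87 and 30.7 TPM) and Lpar6 (14.1, 0.934 and 10.4 TPM) were called lower and then higher. Lpar6 lies within Rb1, so its reads are uncertain.

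The 9 tested alpha subunits, on which RGS proteins act, all differed by less than 1 on the log2 scale in each comparison. Of them, 0 were called in each of the 3 comparisons by limma with the fold threshold, while 5, 4 and 2 had an unadjusted p under 0.05. Gnai2, the main Gi alpha subunit of lymphocytes, was at 592 ± 43.2, 420 ± 13.0 and 461 ± 45.8 TPM, and Gnas, the Gs alpha subunit, at 415 ± 67.0, 659 ± 25.7 and 421 ± 47.9 TPM in the medium, stimulated and TRAIL-treated groups (SD, n = 3). Of 9 beta and gamma subunits, Gng12 was called higher under stimulation and lower with TRAIL, at 9.68 ± 0.633, 22.9 ± 0.644 and 9.54 ± 1.66 TPM. Gng2, at 38.4 ± 0.879, 14.4 ± 0.519 and 27.4 ± 0.857 TPM, was among 2 called lower under stimulation.

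**Figure D5:**
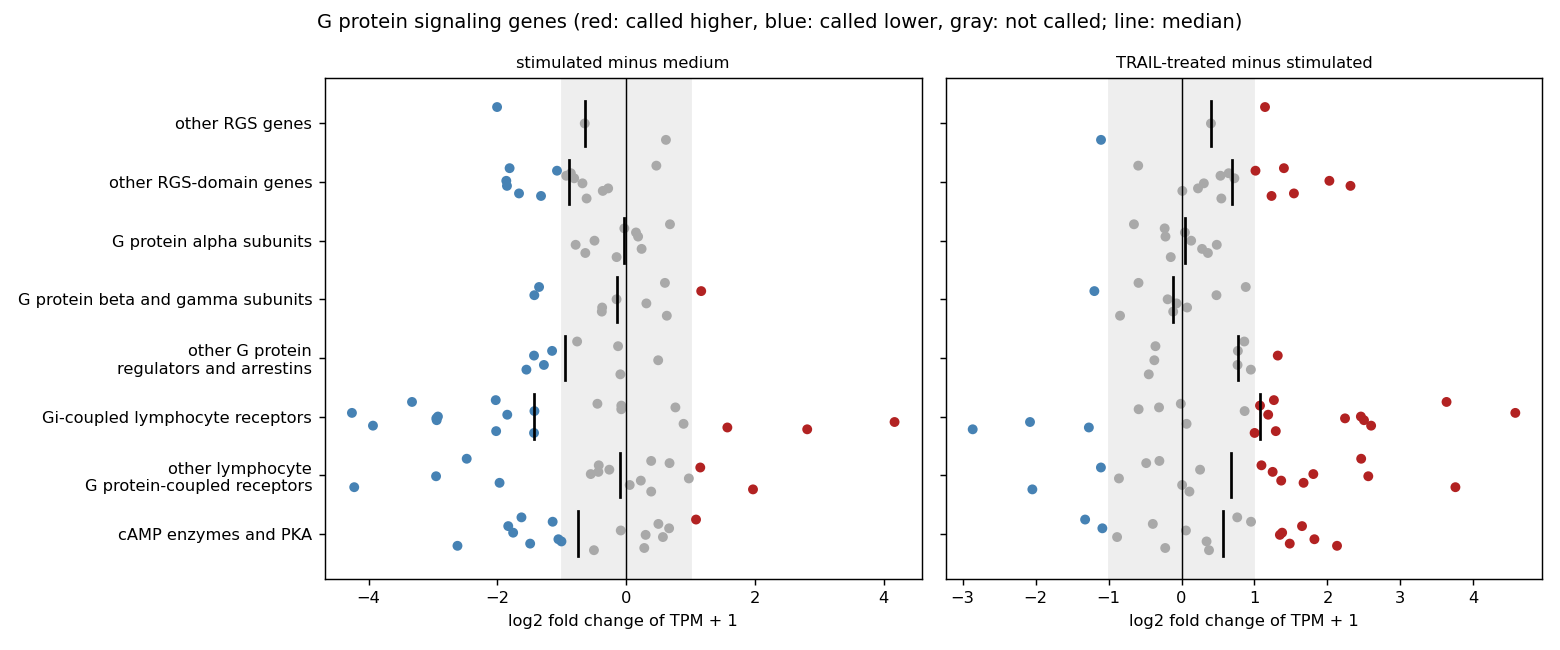
Log2 difference of TPM + 1 for 94 tested genes of G protein signaling by list (points), with the list median (black line) and the range below the fold threshold (gray band). The Gi-coupled receptor list has 11 genes called lower at left and 11 called higher at right, and all 9 alpha subunits lie in the gray band.

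Of 14 other genes whose proteins hold an RGS domain, 6 were called lower under stimulation and 6 higher with TRAIL. Arhgef1, an exchange factor controlled by G12 and G13 subunits, was the most abundant of those called, at 1093 ± 143, 437 ± 69.0 and 1032 ± 188 TPM in the medium, stimulated and TRAIL-treated groups (SD, n = 3). Axin2, a negative regulator of Wnt signaling, was at 24.9 ± 4.54, 6.15 ± 1.13 and 34.4 ± 3.12 TPM, and Grk3, a receptor kinase, at 15.0 ± 1.25, 3.45 ± 0.851 and 16.9 ± 0.875 TPM. The sorting nexin genes Snx13 and Snx14 and the related exchange factor gene Arhgef11 were the others. Of 8 other regulators and arrestins, 4 were called lower under stimulation and 1 higher with TRAIL. Arrb2, which ends receptor signals, was at 267 ± 26.1, 90.3 ± 2.77 and 176 ± 22.4 TPM, and its log2 difference with TRAIL of 0.95 (SE 0.11) was below the fold threshold. Gpsm2 and Gpsm3, whose proteins bind Gi alpha subunits, were called lower under stimulation, with log2 differences of -1.43 and -1.15 (SE 0.14 and 0.13, limma adjusted p = 7.868e-06 and 2.242e-05). Gpsm2 overlaps Clcc1 and Gpsm3 overlaps Pbx2, so reads of these pairs may be exchanged too.

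Of 16 genes of cyclic AMP synthesis, breakdown and response, 1 was called higher and 8 lower under stimulation, and 6 were called higher and 2 lower with TRAIL. Adcy7, an adenylyl cyclase, was at 149 ± 11.9, 24.0 ± 7.01 and 106 ± 19.1 TPM, and Prkacb, a catalytic subunit of protein kinase A, at 152 ± 6.02, 42.1 ± 5.50 and 134 ± 7.21 TPM in the medium, stimulated and TRAIL-treated groups (SD, n = 3). Prkaca, another catalytic subunit of that kinase, went the other way, with group means of 37.5, 59.6 and 27.7 TPM, and was called lower with TRAIL. Prkar2a, a regulatory subunit, had means of 11.6, 25.8 and 9.64 TPM and was called higher and then lower. The phosphodiesterase genes Pde3b (66.9, 23.3 and 66.6 TPM), Pde7a (66.9, 19.2 and 51.4 TPM) and Pde4b (118, 57.0 and 202 TPM) were called lower and then higher, as Adcy7 and Prkacb were. Pde4b was also above medium in every TRAIL-treated library, with a log2 difference of 0.77 (SE 0.13), below the fold threshold. Pde4d, also a phosphodiesterase gene, was called higher with TRAIL than in either other group, at 26.5 ± 3.60, 33.4 ± 8.12 and 84.9 ± 2.26 TPM (SD, n = 3), with log2 differences of 1.35 from stimulated and 1.65 from medium libraries (SE 0.17 each, limma adjusted p = 4.965e-05 and 0.0001075).

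The genes whose pattern was most like each member were found by Pearson's r of log2(TPM + 1) over the 9 libraries among 10456 genes. The 9 points fall into 3 groups, so r mainly reflects the group means and is given as a description. For Rgs2 they were Dusp1 (r = 0.997), Tlr2 (0.996) and 1810026B05Rik (0.995). Dusp1, a phosphatase of MAP kinases, was at 180.0, 18.0 and 367 TPM in the medium, stimulated and TRAIL-treated groups, and Tlr2, a receptor of bacterial lipoproteins found on myeloid cells, at 9.43, 2.64 and 13.7 TPM. For Rgs16 they were Hnrnpa1 (0.997), Mrfap1 (0.996) and Etf1 (0.996). For Rgs3 they were Tox (0.998), Skap1 (0.997) and Tle4 (0.997), and for Rgs14 they were Bmf (0.999), Mr1 (0.999) and Pdcd4 (0.997). Skap1, a T cell adaptor, was at 215, 72.8 and 236 TPM in the 3 groups. For Rgs18 they were Gm20559 (0.997), Alas2 (0.997) and Ighg1 (0.996), of which Alas2, an enzyme of heme synthesis, is in the erythroid list and Ighg1 is an immunoglobulin gene of B lineage cells. For Rgs1 they were Dph3 (0.992), Tiprl (0.982) and Tra2b (0.940), for Rgs10 Frat1 (0.988), Dnajb4 (0.988) and Oser1 (0.987), and for Rgs19 Ucp2 (0.993), St3gal5 (0.991) and Ankrd54 (0.986). Among the members, Rgs2 was most like Rgs3 (r = 0.964) and Rgs14 most like Rgs18 (r = 0.960), and Rgs16 ran opposite to Rgs14 (r = -0.986).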

How the data were processed

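RNA-seq of 9 libraries in 3 groups of 3 was used. The authors trimmed the reads with Trimmomatic 0.36 and aligned them with HISAT2 2.1.0 to GRCm38 according to the study's methods, while the submitters' notes name GRCh38 beside SAMtools 1.2 and StringTie 2.1.2. The deposited values are TPM of 55487 mouse genes, of which 55141 were found in GENCODE M21, 99.3% at the same GRCm38 locus. Depth is unknown, since TPM keeps none, and the fill value of 0.0001 stands for no signal. The authors used DESeq2 on counts, which are not analysed here. Groups were taken from the labels. A linear model of the 3 groups, with no replicate block, was fitted with limma 3.58.1 (eBayes with trend, R 4.3.3) to log2(TPM + 1) of the 15536 genes that reached 1 TPM in 3 or more libraries. p-values were adjusted by Benjamini and Hochberg over all tested genes. Folds of TPM are ratios of group means. Python 3.11.15 was used for tables and plots. The fit was tested on simulated data.

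The members, the lists and the rule for named genes were chosen with earlier results of these data known, so no p-value is given for a member. The rule named all members, up to 6 called genes of each list by the largest log2 difference with a group mean of at least 10 TPM and no overlap, the 3 genes most like each member, and markers. The values of some genes that the rule names are not reported here. The subunits Gnai2, Gnas, Prkaca and Prkar2a, the other Rgs genes, the neighbors on chromosome 1 and the genes that overlap members were named outside it, after their values were seen. Alternatives changed the scaling, the pseudocount, the filter, the fold threshold, the variance trend, the block and the libraries in the fit. With 3 libraries against 3, an exact permutation test of a single gene cannot reach the threshold.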

Additional observations from a re-analysis of the deposited data

How the results depend on the processing

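Over 19 alternatives, 429 of 456 log2 differences of the 8 genes moved by less than the spread between replicates, 27 moved by more and 0 changed sign. Genes called numbered 4959 for stimulated against medium, 4800 for TRAIL-treated against stimulated and 718 for TRAIL-treated against medium libraries. With a pseudocount of 5 they were 2946, 2883 and 332, with a pseudocount of 0.1 the last was 1167, and with no fold threshold they were 10678, 10420 and 5063. Of the genes of G protein signaling, 77, 68 and 39 were called with no fold threshold, against 43, 42 and 5. Leaving out single libraries gave 4558 to 5018, 4461 to 4832 and 624 to 791 genes, and 39 to 43, 39 to 43 and 5 to 8 genes of G protein signaling, the 8 being without replicate 2 of medium.

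Same-numbered libraries of different groups did not deviate together: the correlations of their deviations ran from -0.306 to 0.295, so the numbers were not taken as a pairing. With the replicate block, 4960, 4802 and 714 genes were called, and 43, 42 and 5 of the genes of G protein signaling. Of the members' calls, those that changed, apart from the fold threshold, were the TRAIL-treated against stimulated difference of Rgs18 with a pseudocount of 5, and in TRAIL-treated against medium libraries those of Rgs18 and Rgs16 with a pseudocount of 5, of Rgs16 without replicate 2 of TRAIL-treated cells, of Rgs1 without replicate 2 of medium and of Rgs19 without replicate 1 of medium. Since the table gives no counts, the counting error of low values such as those of Rgs18 in stimulated libraries is unknown.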
